A study of Mus musculus with 12 samples.

Results

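The genes described here are the group B and group C Sox genes of neural progenitors, namely Sox1, Sox2, Sox3 and Sox21 of group B and Sox4, Sox11 and Sox12 of group C. They were taken by symbol from a table of raw RNA-seq counts per gene, where all 7 were found among 23284 genes, and all 7 were among the 14412 genes that passed the filter on low counts. The samples were 12 single whole mouse embryos on a mixed C57BL/6 x 129Sv background, collected 9.0 days after fertilization at about 9 to 10 somites. The labels call 4 of them wild type. The other 8 carry CDKO in their titles, are labelled Tgif1;Tgif2 null, and are described by the series as conditional double mutants that lack both alleles of each gene. The sources used here do not give the driver of the deletion, the litter, the sex or the library batch. Levels are in CPM, the counts of a gene per 1000000 counts of the library after scaling. The Tgif1 level was 60.9 ± 2.52 CPM over the wild-type embryos (SD, n = 4) and 6.2 ± 0.528 over the CDKO-labelled embryos (SD, n = 8). Tgif2 was not called lower (87.3 ± 1.17 against 97.9 ± 11.8 CPM, mean ± SD), so the Tgif2 genotype rests on the labels.

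Sox proteins bind DNA through an HMG box related to that of the sex-determining factor SRY. Sox1, Sox2 and Sox3 form subgroup B1, whose members activate transcription, overlap along the neural plate and tube and hold cells in the progenitor state. Sox21 belongs to subgroup B2, which acts mainly as a repressor and opposes B1. Group C genes are switched on as progenitors leave the cycle and drive neuronal genes, and they are also active in mesenchyme and other embryonic tissues. Tgif1 and Tgif2 encode homeodomain repressors that bind DNA at a TGTCA core and restrain TGF-beta and Nodal signalling.

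The libraries held 16802367 to 21346245 counts, and each Sox gene of the 7 had at least 687 counts in every embryo. Of the 14412 genes tested, 51.5% differed between the groups by edgeR at an adjusted p below 0.05, with 26.6% higher and 24.9% lower in the CDKO-labelled embryos. Earlier results of these data set wild-type embryo 1 and CDKO-labelled embryo 2 apart. Values without both are given beside the results they change or in the closing section. Markers of all the listed parts of the embryo were detected. Of 10 heart markers 8 rose and none fell (mean log2 level 6.57 to 6.89 in wild type, 7.25 to 7.97 in CDKO). Of 7 endothelial markers 5 rose and none fell (5.17 to 5.41, and 5.58 to 6.1). Of 9 presomitic and tailbud markers none rose and 5 fell (4.38 to 4.93, and 1.45 to 4.13, lowest in embryo 2). That count of 5 was 3 to 7 with 1 embryo left out and 3 under 10 of the 27 alternative settings. Of neural crest markers 1 rose and 1 fell of 8, of placode and surface ectoderm markers 4 and 2 of 11, of foregut endoderm markers 2 and 2 of 8, and of somite markers 0 and 2 of 7. With wild-type embryo 1 and CDKO-labelled embryo 2 both left out, 0 foregut endoderm markers rose. By edgeR no primitive red cell marker of 7 and no yolk sac endoderm marker of 6 was called. Red cell markers had a median log2 fold change of -1.03, and 3 were lower with limma-voom, 6 with sample quality weights and 2 without CDKO-labelled embryo 1. The part these tissues play in the Sox values was not tested.

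Sequence upstream of 4 of the genes is shown because the tests below turn on them: Sox4 and Sox12 were the 2 members called, and Sox2 and Sox11 varied together between embryos. The motif and the genes shown were chosen after these values had been seen. Each line gives the 250 bases before the RefSeq transcription start on the gene's strand (RefSeq, GRCm38.p6), with TGTCA or its reverse complement TGACA in capitals. The windows lie at chr3:34649745-34649994 on the plus strand for Sox2, and on the minus strand at chr12:27342719-27342968 for Sox11, chr13:28953700-28953949 for Sox4 and chr2:152398047-152398296 for Sox12.
Sox2: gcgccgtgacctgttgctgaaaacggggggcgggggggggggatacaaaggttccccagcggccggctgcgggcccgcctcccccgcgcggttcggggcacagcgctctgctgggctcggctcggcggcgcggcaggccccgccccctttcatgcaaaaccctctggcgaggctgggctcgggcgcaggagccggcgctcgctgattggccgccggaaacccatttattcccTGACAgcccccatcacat
Sox11: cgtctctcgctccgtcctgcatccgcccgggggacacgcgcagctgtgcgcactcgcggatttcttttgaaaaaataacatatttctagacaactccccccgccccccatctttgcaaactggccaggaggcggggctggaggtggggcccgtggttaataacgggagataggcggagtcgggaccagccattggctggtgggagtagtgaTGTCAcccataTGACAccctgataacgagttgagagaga
Sox4: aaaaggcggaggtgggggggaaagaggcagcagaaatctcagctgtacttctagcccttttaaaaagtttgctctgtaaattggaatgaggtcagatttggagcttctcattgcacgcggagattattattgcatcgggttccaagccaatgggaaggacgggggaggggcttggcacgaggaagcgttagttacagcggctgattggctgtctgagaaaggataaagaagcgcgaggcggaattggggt
Sox12: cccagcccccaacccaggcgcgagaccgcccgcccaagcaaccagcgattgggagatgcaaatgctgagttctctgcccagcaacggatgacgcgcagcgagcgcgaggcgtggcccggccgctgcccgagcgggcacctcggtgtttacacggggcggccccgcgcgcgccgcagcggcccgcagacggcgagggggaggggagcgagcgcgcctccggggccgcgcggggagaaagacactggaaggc
The Sox2 window held 1 copy of the core and the Sox11 window held 2, beginning 39 and 28 bases before the start. The windows of Sox4, Sox12, Sox1 and Sox21 held none on either strand, and Sox3 had no entry in the table. Of 32851 such RefSeq windows, 39.95% held at least 1 copy and 11.1% held 2 or more. G and C made up 74.4% of the Sox12 window, 72% of Sox2, 71.2% of Sox1, 65.2% of Sox21, 58% of Sox11 and 50.8% of Sox4. The median over all windows was 52.4%, so these rates are not matched for base composition. A match is a run of letters and not a bound site.

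The 7 genes are short and mostly without introns, with a single exon in GENCODE M21 for all but Sox12. None had a near-identical copy among the GENCODE M21 transcripts (at least 200 bases at 95% identity in a gene elsewhere). Sequence outside annotated transcripts was not searched. The Sox4 exon is overlapped by Gm26735 and the Sox21 exon by Gm4675, both on the opposite strand, and the Sox1 exon by the miRNA gene Gm25239 on the same strand. None of these is in the count table, and the sources used here do not state whether counting used strand. Sox2 lies inside an intron of the non-coding RNA gene Sox2ot, which was counted separately.

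Per kilobase of exon, the levels in wild-type embryos ran from 68 CPM per kb for Sox2, through Sox12 (55.7), Sox3 (41.5), Sox4 (36.6), Sox11 (27.6) and Sox1 (12.7), to 11.9 for Sox21. In the CDKO-labelled embryos the order was the same, from 73.8 CPM per kb for Sox2 to 11.8 for Sox21. Sox2 and Sox12 cannot be ranked with confidence. With RefSeq gene lengths they stood at 56.7 and 55.9 CPM per kb in wild type and at 61.6 and 62.3 in CDKO. Sox1 and Sox21 were neighbours within their spread in wild type with the GENCODE lengths. Sox1 stood at 11.2 to 15.3 CPM per kb and Sox21 at 10.9 to 13.8. Sox2 made up 55.7% ± 0.798 (SD, n = 4) of the B1 level per kb in wild type and 57% ± 3.37 (SD, n = 8) in CDKO.

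**Figure D1:**
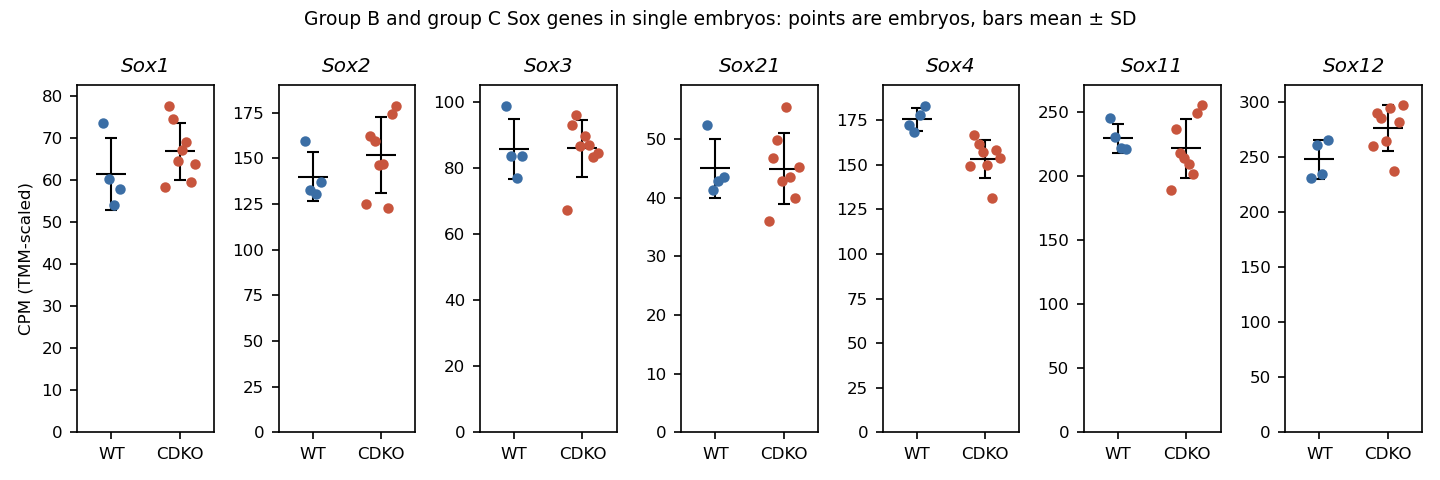
Level of each group B and group C Sox gene in every embryo, in CPM after TMM scaling on a linear axis from 0 (blue, 4 wild-type embryos; red, 8 CDKO-labelled embryos; bars, mean ± SD). The groups overlap for every gene except Sox4, where all CDKO-labelled embryos lie below 168 CPM, the lowest wild-type value.

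Of the 4 group B genes none was called, against 51.5% of all genes tested, and Sox1 alone passed under 2 of the alternative settings. Sox2, which also marks foregut and sensory placodes, stood at 160, 133, 130 and 137 CPM in wild-type embryos 1 to 4. In the CDKO-labelled embryos Sox2 ranged from 123 to 178 CPM, with a median of 153. The CDKO-labelled embryos lay on both sides of the wild-type range, with embryos 1 and 6 below it and embryos 2, 7 and 8 above it. The Sox2 log2 fold change was 0.12 (SE 0.10, 95% interval -0.09 to 0.33, edgeR adjusted p = 0.333). The sources used here do not state whether the driver of the deletion carries Sox2 sequence.

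Sox1, the most neural-restricted of the 3 B1 genes, stood at 73.7, 60.4, 54.1 and 58 CPM in the wild-type embryos. The CDKO-labelled range was 58.4 to 77.6 CPM with a median of 65.9. Embryos 2 and 3 lay above the wild-type range and the other 6 within it. The Sox1 log2 fold change was 0.12 (SE 0.09, 95% interval -0.07 to 0.31, adjusted p = 0.27). It passed the threshold when wild-type embryo 1, the highest wild-type embryo, was left out (0.22, edgeR adjusted p = 0.0489) and with sample quality weights in limma-voom (0.19, adjusted p = 0.0367), and missed it when wild-type embryo 1 and CDKO-labelled embryo 2 were both left out (0.19, adjusted p = 0.0612).

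Sox3, an X-linked gene needed for pituitary and forebrain midline development, stood at 98.7, 83.7, 77 and 83.6 CPM in wild type. In the CDKO-labelled embryos the lowest was 67.4, the median 86.8 and the highest 96.2 CPM. Only CDKO-labelled embryo 1 lay below the wild-type range. The Sox3 log2 fold change was 0.0037 (95% interval -0.17 to 0.18, adjusted p = 0.973). The Sox3 transcript is rich in G and C (66.4%, the 99.7th percentile of genes tested). With each library's dependence on GC content and transcript length taken out, the Sox3 value was -0.12 (edgeR adjusted p = 0.0933). Xist, the RNA that coats the inactive X chromosome, ranged from 275 to 609 CPM in 8 embryos and from 0.0506 to 0.64 CPM in the other 4, of which 1 was wild-type and 3 CDKO-labelled. Sox3 stood at 83.4 to 96.2 CPM in the CDKO-labelled embryos low in Xist and at 67.4 to 92.9 CPM in those high in it, so these sets overlapped. With Xist as a covariate the Sox3 log2 fold change was -0.0057.

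Sox21 stood at 52.4, 41.4, 42.8 and 43.5 CPM in the wild-type embryos. The CDKO-labelled values ran from 36 to 55.5 CPM with a median of 44.4, covering the whole wild-type range. The log2 fold change was -0.00069 (95% interval -0.21 to 0.21, adjusted p = 0.996). Over the 4 group B genes the 95% intervals extended no lower than -0.21 and no higher than 0.33 on the log2 scale. Wild-type embryo 1 was the highest wild-type embryo in all 4 group B genes and in Sox11. Sox2ot, the RNA gene around Sox2, was not called, with 4.66 ± 1.17 CPM over wild-type and 3.96 ± 1.64 CPM over CDKO-labelled embryos (log2 fold change -0.23, SE 0.27, adjusted p = 0.49).

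Within group C, Sox4 fell and Sox12 rose by small amounts, the Sox12 call being at the threshold. Of the 7 Sox genes these were the 2 called (1 higher and 1 lower). That is 14.3% in each direction, below the 26.6% higher and 24.9% lower of all genes tested. Sox4, active in heart cushion, lymphoid and neuronal development, stood at 172, 168, 178 and 183 CPM in the wild-type embryos. In the CDKO-labelled embryos it stood at 149, 166, 161, 157, 150, 131, 158 and 153 CPM in order of embryo number. All 8 lay below all 4 wild-type embryos. The Sox4 log2 fold change was -0.19 (SE 0.05, 95% interval -0.31 to -0.08, edgeR adjusted p = 0.00795). Sox4 was the 1 gene of the 7 whose groups did not overlap, against 34.7% of all genes tested and 17.1% in this direction. In whole embryos, fewer cells that express a gene and less RNA per cell cannot be told apart. The fall was not past a test against a 1.2-fold change (adjusted p = 1).

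Sox12, a broadly expressed and weaker activator of the group, stood at 231, 261, 234 and 265 CPM in wild type. The CDKO-labelled embryos ran from 237 to 297 CPM with a median of 284, and 7 of 8 lay above the wild-type mean. Embryos 1, 4 and 6 lay within the wild-type range and the other 5 above it. The Sox12 log2 fold change was 0.16 (SE 0.06, 95% interval 0.02 to 0.29, edgeR adjusted p = 0.0493). This call sits at the threshold. It did not hold with wild-type embryo 1 left out (edgeR adjusted p = 0.162), with wild-type embryo 3 left out (0.155), without any 1 of CDKO-labelled embryos 2, 3, 4, 5, 7 and 8 (0.05 to 0.082), and under 9 other settings. Among those settings was the fit without both wild-type embryo 1 and CDKO-labelled embryo 2 (0.12, edgeR adjusted p = 0.202). The Sox12 transcript is rich in G and C (59.9%, the 95th percentile of genes tested), and once each library's dependence on GC content and transcript length was taken out the value was 0.041 (adjusted p = 0.564).

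Sox11, which activates neuronal genes such as Tubb3, was not called. It stood at 245, 230, 221 and 221 CPM in wild type. In CDKO it ranged from 189 to 255 CPM with a median of 215. The CDKO-labelled embryos again spread to both sides. Embryos 1, 3, 4, 5 and 6 lay below the wild-type range, embryo 2 within it and embryos 7 and 8 above it. The Sox11 log2 fold change was -0.05 (SE 0.07, 95% interval -0.21 to 0.10, adjusted p = 0.578), and the coefficient of variation was 4.91% in wild type and 10.5% in CDKO.

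**Figure D2:**
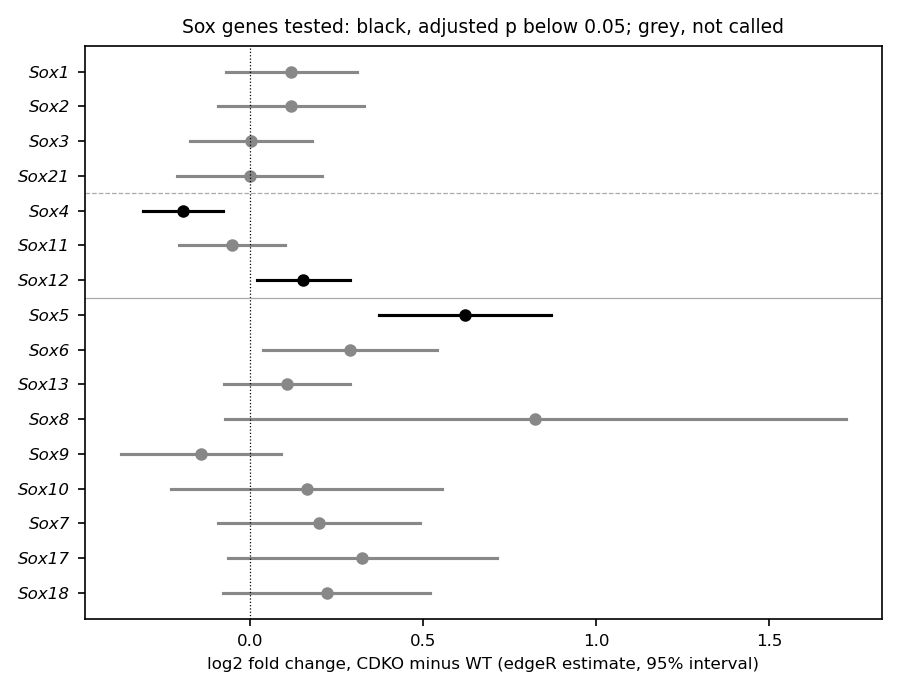
Log2 fold change of every tested Sox gene, CDKO-labelled minus wild type, with its 95% interval (black, edgeR adjusted p below 0.05; grey, not called). The dashed line parts group B from group C and the solid line parts both from the other Sox genes. Sox4 lies at -0.19, Sox12 at 0.16 and Sox5 at 0.62.

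Ratios of one paralog to another within an embryo need no scaling between libraries, and 7 such ratios were compared (exact permutation test, both tails, over all splits of the 12 embryos into 4 and 8, Benjamini-Hochberg over the 7 pairs, smallest unadjusted p possible 0.00404). The ratio of Sox4 to Sox12 counts was lower in the CDKO-labelled embryos. Its log2 value was -0.50 ± 0.11 (SD, n = 4) in wild type and -0.85 ± 0.08 (SD, n = 8) in CDKO, a difference of -0.35 (exact permutation p = 0.00404, adjusted p = 0.0283). The wild-type embryos lay at -0.64 to -0.40 and the CDKO-labelled embryos at -0.97 to -0.75, with no overlap. With that dependence on GC content and length taken out, a check added after seeing the data, the difference was -0.25, the groups overlapped, and the adjusted p was 0.0566 (exact permutation).

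Per kilobase, Sox4 made up 30.5% ± 1.24 of the group C level in wild type and 26.5% ± 1.1 in CDKO, Sox12 46.4% ± 1.98 and 51.4% ± 1.22, and Sox11 23% ± 1.55 and 22.1% ± 1.37. The summed group C level overlapped between the groups, at 116 to 124 CPM per kb in wild type and 105 to 129 in CDKO. The other 6 ratios did not pass. Sox1 to Sox3 differed by 0.12 and Sox12 to Sox11 by 0.21 (exact permutation adjusted p = 0.066 for both). Sox4 to Sox11 differed by -0.14 (adjusted p = 0.198 by the exact test), Sox3 to Sox2 by -0.11, Sox21 to Sox2 by -0.12 and Sox1 to Sox2 by 0.013. The spread of the Sox1 to Sox2 ratio was 0.076 (SD of the log2 ratio) in wild type and 0.23 in CDKO.

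**Figure D3:**
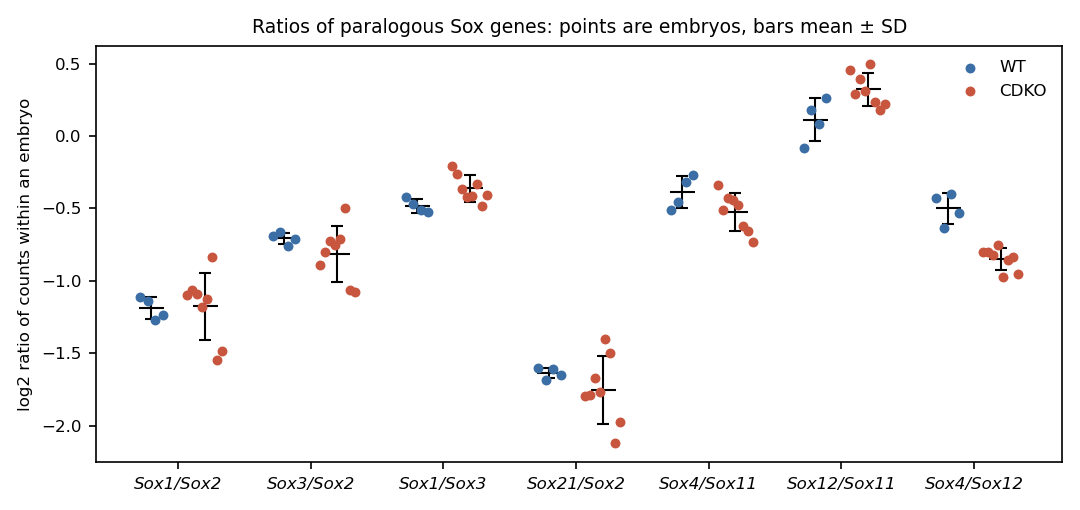
Log2 ratio of the counts of 2 Sox genes within each embryo (blue, 4 wild-type embryos; red, 8 CDKO-labelled embryos; bars, mean ± SD), for the 7 pairs compared. The ratio of Sox4 to Sox12 is at -0.50 in wild type and -0.85 in CDKO, with no overlap.

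The CDKO-labelled embryos differed among themselves in group B and C levels, and certain genes varied together. Over these 8 embryos 21 pairs of genes were compared on the log2 CPM scale, with exact permutation p-values adjusted over the 21 pairs. Sox2 and Sox11 gave Pearson r = 0.94 (exact p = 0.000298, adjusted p = 0.00625) and Spearman rho = 0.952 (exact p = 0.00114, adjusted p = 0.012). Without the 2 embryos farthest from the Sox2 median r was 0.957. Embryos 1 and 6 were lowest and embryos 7 and 8 highest in both genes.

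Sox1 and Sox3 gave r = 0.815 (exact permutation p = 0.00109, adjusted p = 0.0115) and rho = 0.952 (exact p = 0.00114, adjusted p = 0.012), with r = 0.773 without the 2 embryos farthest from the Sox1 median. Sox2, by contrast, gave r = 0.127 with Sox1 (exact p = 0.762, adjusted p = 0.8) and rho = -0.0238 (exact p = 0.977, adjusted p = 0.977), so no relation was detected between these B1 genes, and r was -0.213 without the 2 farthest embryos. Sox3 with Sox21 (r = 0.804, exact p = 0.017; rho = 0.857, exact p = 0.0107) and Sox2 with Sox12 (r = 0.831, exact p = 0.0166; rho = 0.786, exact p = 0.0279) did not pass after adjustment (exact adjusted p = 0.0891 for both r, 0.075 and 0.147 for rho). Without the 2 farthest embryos the Sox2 and Sox12 value was r = 0.454, so it rests on those embryos, and that of Sox3 and Sox21 was r = 0.625. These genes share their libraries and their scaling. In wild type, 4 embryos were too few for such a test.

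**Figure D4:**
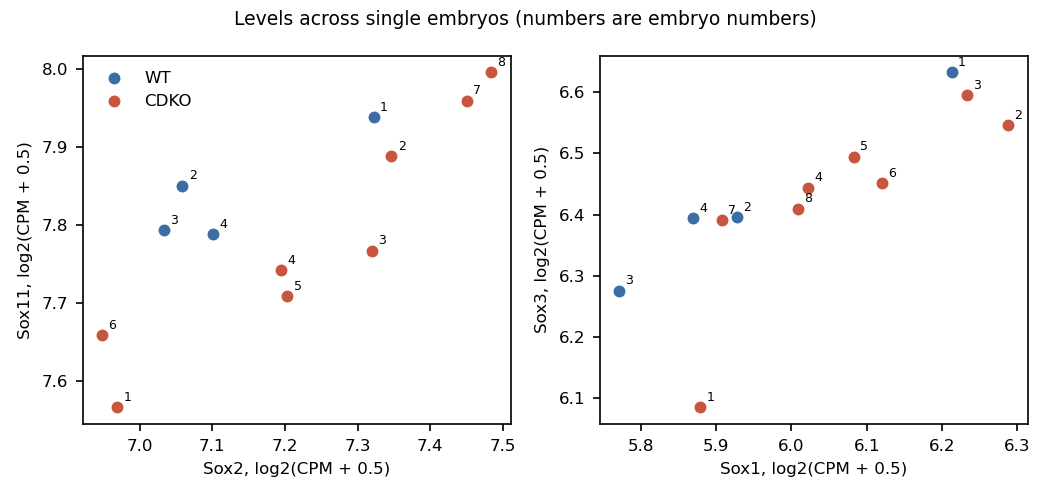
Sox11 against Sox2 (left) and Sox3 against Sox1 (right) in each embryo, as log2(CPM + 0.5), with embryo numbers (blue, wild type; red, CDKO-labelled). CDKO-labelled embryos 7 and 8 are highest in Sox2 and Sox11 but not in Sox1 and Sox3.

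Outside the group B and C genes, Sox5 rose. Of 12 other Sox genes listed, 9 passed the count filter, and of these 1 rose and none fell (26.6% and 24.9% of all genes), with a median log2 fold change of 0.22 against 0.0066 over all genes tested. The mean log2 level of these 9 genes, Sox5 among them, was 4.45 to 4.48 in wild type and 4.59 to 4.83 in CDKO. The groups did not overlap in that level. Sox5, a group D gene that lacks an activation domain and acts with Sox6 in cartilage and neural lineages, stood at 14.3, 13.7, 13 and 12.8 CPM in wild type and at 14.4 to 23.8 CPM in CDKO. All 8 CDKO-labelled embryos lay above all 4 wild-type embryos, as in 17.5% of all genes tested. The difference was 0.62 on the log2 scale (SE 0.12, edgeR adjusted p = 0.000432). Its group D relatives were not called, with Sox6 at 0.29 (SE 0.12, adjusted p = 0.0523) and Sox13 at 0.11 (SE 0.09, adjusted p = 0.306). Sox6 passed the threshold under 11 of the 27 alternative settings.

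The group E genes, which mark neural crest, glia and cartilage, were not called. Sox8 stood at 0.82 (SE 0.42), Sox9 at -0.14 (SE 0.11) and Sox10 at 0.16 (SE 0.18), with adjusted p of 0.114 to 0.471. The endothelial and endodermal group F genes were not called either, with Sox7 at 0.20 (SE 0.14), Sox17 at 0.33 (SE 0.18) and Sox18 at 0.22 (SE 0.14), beside the endothelial markers of which 5 of 7 rose. Sox14, the other B2 gene, was not tested, with 11 counts in all wild-type libraries together and 48 in the CDKO-labelled ones, nor were Sox15 (5 and 16 counts) and Sox30 (13 and 55 counts).

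Neural progenitor genes other than Sox genes were called at about the rate of all genes. Of 26 tested 6 rose and 6 fell (23.1% each, beside 26.6% higher and 24.9% lower over all genes), 14 were not called, and the list median was 0.12. Without wild-type embryo 1 and CDKO-labelled embryo 2 these counts were 5 and 3. Ncam1, a neural cell adhesion gene that heart also expresses, rose by 1.17 on the log2 scale (SE 0.10), from 40.6 ± 6.09 to 91.2 ± 10.1 CPM. Vim, an intermediate filament gene of progenitors and of mesenchyme, rose from 301 ± 27.1 to 589 ± 65.4 CPM (0.97, SE 0.09). Dbx1, a homeobox gene of intermediate neural tube progenitors, rose from 8.24 ± 1.16 to 14.6 ± 3.74 CPM (0.82, SE 0.18). For each of these genes all 8 CDKO-labelled embryos lay above all 4 wild-type embryos. These were the 3 genes of the 26 that did so, beside 17.5% of all genes tested. The mean log2 level of the list was 4.61 to 4.87 in wild type and 4.54 to 5.12 in CDKO, so the groups overlapped. Heart and endothelial markers, given above, moved with Ncam1 and Vim, and their part in these values was not tested.

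Of 15 partners and targets of the B1 proteins listed and tested none rose, 5 fell (33.3%, beside 24.9% of all genes) and 10 were not called, with a median of -0.27. Under 9 of the 27 alternative settings 1 or 2 were called higher, 2 of them with DESeq2 and with sample quality weights. Without wild-type embryo 1 and CDKO-labelled embryo 2, 1 rose and 4 fell. Pou3f1, Pou3f2, Pou3f3, Pax6, Nes, Cdh2 and Hes5 are also in the neural progenitor list, so the lists are not separate. Pou3f1 counts among the genes that fell in both. Chd7, a chromatin remodeller that binds Sox2, stood at 274, 292, 286 and 284 CPM in wild type and at 178 to 256 CPM in CDKO. The groups did not overlap, as in 4 of the 15 genes and 17.1% of all genes in this direction. The log2 fold change was -0.27 (SE 0.07, edgeR adjusted p = 0.00561). Pou3f1, a POU factor that pairs with B1 proteins on neural enhancers, fell from 20.7 ± 5.68 to 11.9 ± 3.38 CPM (-0.80, SE 0.23, adjusted p = 0.0108). Hesx1, an anterior neural and pituitary repressor gene, fell from 4.56 ± 1.7 to 2.11 ± 0.872 CPM (-1.11, SE 0.31, adjusted p = 0.00869). Neither call held when wild-type embryo 1, the highest in each gene, was left out (Pou3f1 -0.60, adjusted p = 0.0531; Hesx1 -0.82, adjusted p = 0.0527), which left 2 genes called lower and 1 higher in the list. The remaining genes that fell, named after their values were seen, were Fgf4 (-0.96, SE 0.34) and Notch1 (-0.34, SE 0.11). Another pair chosen in that way were not called, Nes at 0.15 (SE 0.16) and Pax6 at 0.03 (SE 0.10). Of the presomitic and tailbud markers given above 5 of 9 fell, and their part in the Fgf4 and Notch1 values was not tested. CDKO-labelled embryos 7 and 8 were the lowest in Pou3f1 (5.94 and 7.36 CPM, against 12.3 to 15.3 in the other CDKO-labelled embryos). The same held for Hesx1 (0.815 and 0.883, against 2.02 to 3.19), Fgf4 (0.873 and 0.343, against 1.8 to 2.43) and Pou5f1, which was not called. In Pou3f2, Pou3f3, Nes, Hes5 and Cdh2 they were instead the highest CDKO-labelled embryos. These genes too were picked by their values.

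Neuronal differentiation genes were called lower at about the rate of all genes. Of 35 listed, 28 passed the count filter, and of these 2 rose (7.14%), 8 fell (28.6%) and 18 were not called, beside 26.6% higher and 24.9% lower over all genes. Among the 8 is Map2, which the table holds under its older symbol Mtap2 and which was matched after the list counts had been seen; without it 2 rose and 7 fell (25.9%) of 27 (median -0.02). The list median with it was -0.04, and without wild-type embryo 1 and CDKO-labelled embryo 2 there were 1 and 4. Leaving out 1 embryo gave 3 to 9 genes lower. The CDKO-labelled embryos were not alike in this list. Its mean log2 level was 2.92 to 3.04 in wild type, 2.49 to 2.84 in CDKO-labelled embryos 1 to 6 and 3.2 and 3.23 in embryos 7 and 8, the pair highest in Sox2 and Sox11. That split of the embryos was made after the values had been seen, and a relation to Sox2 or Sox11 was not tested. Elavl2, which encodes a neuronal RNA-binding protein, fell by 0.51 on the log2 scale (SE 0.11), from 21.9 ± 2.76 to 15.4 ± 2.18 CPM. Pou4f1, a marker of sensory neurons, fell from 3.73 ± 0.404 to 2.28 ± 0.408 CPM (-0.71, SE 0.16). In both genes all 8 CDKO-labelled embryos lay below all 4 wild-type embryos. These were the 2 genes of the 28 that did so, beside 17.1% of all genes tested. Dll3, a Notch ligand gene of both neurons and presomitic mesoderm, fell from 23.2 ± 8.49 to 7.86 ± 3.35 CPM (-1.57, SE 0.44), beside the presomitic and tailbud markers given above, and its part there was not tested. The genes that rose, named after their values were seen, were Isl1 (0.20, SE 0.08) and Gadd45g (0.40, SE 0.16).

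Of 4 targets of the group C proteins 2 fell, or 1 of 3 without the later match of Map2, which was itself 1 of the 2 calls. Over all genes 24.9% fell, and Tubb3, Map2 and Dcx are also in the neuronal list. The mean log2 level of the 4 genes was 4.55 to 4.82 in wild type, 3.92 to 4.3 in CDKO-labelled embryos 1 to 6, and 4.7 and 4.68 in embryos 7 and 8. The embryos were split here as in the neuronal list, after the values had been seen. With the shared genes this is not a separate result. Tubb3, a neuronal tubulin gene, stood at 38.7, 30, 27.9 and 31 CPM in wild type and at 14.2 to 30.3 CPM in CDKO (log2 fold change -0.44, SE 0.15, adjusted p = 0.0278). Map2, a dendritic microtubule gene counted as Mtap2, had 15.1 ± 2.99 CPM over wild-type and 10 ± 3.44 CPM over CDKO-labelled embryos (-0.59, SE 0.23, adjusted p = 0.0449). The Mtap2 call was lost without any 1 of wild-type embryos 1, 3 and 4 and CDKO-labelled embryos 1 to 6. Tubb3 missed the threshold when wild-type embryo 1 (-0.33, adjusted p = 0.112) or 4 (-0.45, adjusted p = 0.0509) was left out, and neither gene of the list was called without wild-type embryo 1 and CDKO-labelled embryo 2. Dcx, a migration gene of young neurons, had mean levels of 0.94 and 0.677 CPM (-0.47, SE 0.48), and Tead2, a Hippo pathway factor gene, at -0.08 (SE 0.05). Neither was called.

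**Figure D5:**
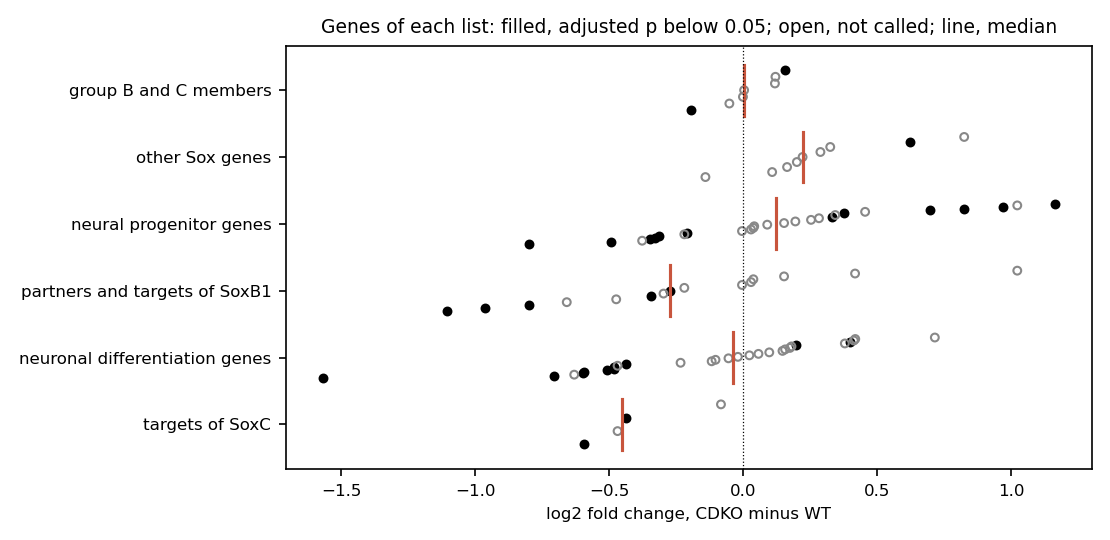
Log2 fold change, CDKO-labelled minus wild type, of each tested gene in the group B and C Sox genes and the 5 other lists (filled, edgeR adjusted p below 0.05; open, not called; red line, list median; vertical offsets only spread the points). The group B and C genes lie between -0.19 and 0.16, and the neural progenitor genes between -0.80 and 1.17.

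The genes most like Sox2 and Sox11 across embryos were sought among 9412 other genes, by Pearson r of log2 CPM over all 12 embryos after each group's mean was subtracted. For Sox2 they were Dpysl4 (r = 0.964), Mycl1 (0.963) and Cadm4 (0.953). For Sox11 they were Khdrbs3 (r = 0.956), Tle1 (0.942) and D0H4S114 (0.925). These are the highest values of many and share libraries and scaling, and they are given as a description. Since group means were subtracted, the likeness says nothing of differences between the groups. Those were tested apart. Cadm4 rose by 1.88 (SE 0.14) and Mycl1 fell by 0.32 (SE 0.11), while Dpysl4 (0.15, SE 0.17) was not called. The Mycl1 call was lost without wild-type embryo 1 (-0.264, edgeR adjusted p = 0.0803). It was also lost without both that embryo and CDKO-labelled embryo 2 (-0.256, edgeR adjusted p = 0.119). D0H4S114 rose by 0.31 (SE 0.09), and Khdrbs3 (-0.05, SE 0.07) and Tle1 (-0.16, SE 0.07) were not called.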

How the data were processed

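RNA was measured by poly-A RNA-seq with 50-base reads from both ends, as the labels state. The deposited values are raw counts, with 1 row per gene symbol and 1 column per embryo. The submitters' processing notes name FastQC, STAR, featureCounts, DESeq2 and build mm9. The sources used here give no versions, annotation or strand setting.

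Members and lists were chosen with earlier results of these data known. Groups follow the genotype label, and replicate numbers only name embryos. P-values measure the spread between embryos, and litters may be shared. No 2 libraries of a group were within sampling noise (lowest chi-square per degree of freedom 3.89).

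Counts were tested with edgeR 4.0.16 (R 4.3.3): TMM scaling, filterByExpr, robust quasi-likelihood F test of genotype, no covariate, Benjamini-Hochberg over 14412 genes, threshold 0.05. The SE is the log2 fold change divided by the square root of F, and intervals are 95%. The fit was also run on counts simulated from its own dispersions, with few genes changed and independent embryos. That setting differs from these data, so the run does not check the fit in them. CPM is per 1000000 scaled counts, and list levels are mean log2(CPM + 0.5). Ratios had 0.5 added to counts and were tested by exact permutation (SciPy 1.17.1). Lengths and GC content came from GENCODE M21 (GRCm38), for 22824 of 23284 symbols, and copies were sought with BLAST 2.17.0. Genes named are the members, all other Sox genes, up to 3 genes of lowest p per list described, and the genes most like Sox2 and Sox11 (mean of at least 10 CPM). Marker lists are given as counts only. Alternatives were other scaling, filters, tools (DESeq2 1.42.0, limma 3.58.1) and thresholds, single embryos left out, covariates, and GC and length trends removed, which for ratios was added after seeing the data. RefSeq lengths, the promoter motif and windows, and the match of Map2 to Mtap2 were likewise chosen after values had been seen. The match raised the lower calls from 7 to 8 in the neuronal list and from 1 to 2 among group C targets. All 7 ratios planned were computed and are given. All 21 correlations were computed, and the 5 described were chosen by their values.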

Additional observations from a re-analysis of the deposited data

Results flagged for a closer look

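In 4 of 72 groups of embryos (5.56%) 1 embryo lay far from the others, a rate of about 1 in 20 being what chance alone flags. Sox3 was at 67.4 CPM in CDKO-labelled embryo 1, the lowest of its group. Chd7 was at 178 CPM in CDKO-labelled embryo 6, the lowest of its group. Sox10, a neural crest gene, was at 103 CPM in CDKO-labelled embryo 2, the highest of its group. Sox2ot was at 7.46 CPM in CDKO-labelled embryo 8, the highest of its group and one of the pair of embryos highest in Sox2.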

How the results depend on the processing

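Sox4 kept its direction under all 27 alternatives and its call in all but the test against 1.2-fold (-0.19). Sox2 stayed uncalled and positive in all 27. Sox12 missed the threshold with RLE scaling (0.15), limma-voom (0.15), dispersions not robust (0.16), Xist (0.14) or posterior Hox genes (0.13) as covariate, GC content and length trends removed (0.041), wild-type embryo 1 and CDKO-labelled embryo 2 left out (0.12), the test against 1.2-fold and a threshold of 0.01 (0.16 each). Sox1 was called with sample quality weights (0.19). Values near 0 turned sign without a call: Sox3 at -0.0015 with RLE and with DESeq2, -0.0057 with Xist, -0.017 with posterior Hox genes and -0.12 with trends removed; Sox21 at 0.0056 with upper-quartile scaling, 0.087 with quality weights, 0.0061 without a filter, 0.012 with a stricter filter and 0.074 without the 2 embryos; Sox11 at 0.032, Sox13 at -0.017 and Khdrbs3 at 0.081 with trends removed; and Sox10 at -0.039 with posterior Hox genes. The cause was not tested. Leaving out 1 embryo gave Sox1 0.059 to 0.22, Sox3 -0.049 to 0.076, Sox21 -0.050 to 0.078, Sox12 0.12 to 0.19 and Sox4 -0.21 to -0.16.

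The ratio of Sox4 to Sox12 missed the threshold with trends removed (-0.25), was -0.33 without both embryos, and differed by -0.40 to -0.32 with 1 embryo left out. Without any 1 wild-type embryo its adjusted p was 0.0848, and without both embryos 0.117 (exact permutation). In those tests its groups still did not overlap, so its unadjusted p was the smallest possible with fewer embryos. Whether it then passed depended on the p-values of the other pairs, so those tests say nothing of its stability. Sox1 to Sox2 turned to -0.046 with trends removed and ranged from -0.037 to 0.066 with 1 embryo left out, Sox1 to Sox3 from 0.099 to 0.14 and Sox12 to Sox11 from 0.15 to 0.26, each of the latter passing without CDKO-labelled embryo 7. The correlation of Sox1 with Sox2 was -0.0068 without CDKO-labelled embryo 2.

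The test against 1.2-fold called 3223 genes, 2079 higher and 1144 lower (64.5% higher, against 51.7%). In lists it left 3 higher and 2 lower neural progenitor genes, 2 lower partners of B1, 0 higher and 3 lower neuronal genes and 0 lower targets of group C. A threshold of 0.01 left 2 lower in each of the first 3 lists, 0 higher neuronal genes and 0 lower targets. Without the 2 embryos 3 progenitor genes were lower, 1 partner was higher, 1 neuronal gene was higher and 4 lower, and 0 targets were lower. Other Sox genes called higher numbered 2 with upper-quartile scaling, DESeq2, quality weights, no filter, a stricter filter, posterior Hox genes, the 50 most abundant genes left out and trends removed, and 1 was lower with posterior Hox genes. Partners called higher numbered 1 with upper-quartile scaling and the stricter filter and 2 with DESeq2 and quality weights, and 3 were lower with the stricter filter. Neuronal genes called higher numbered 1 with limma-voom, no filter and trends removed, and 5 were lower with no filter and with posterior Hox genes. Targets of group C called lower numbered 1 without the match of Map2 to Mtap2 (an alternative added after seeing the data, under which neuronal genes numbered 2 higher and 7 lower), and 1 with no filter, Xist and posterior Hox genes. Leaving out 1 embryo gave 1 to 2 other Sox genes higher, 3 to 7 progenitor genes lower (3 without wild-type embryo 1), 0 to 1 partners higher and 2 to 6 lower, 0 to 2 neuronal genes higher and 3 to 9 lower, and 0 to 2 targets lower. No paired analysis was possible because the labels give no litter or other link between embryos of the 2 groups. With at least 687 counts per member and embryo, the spread between embryos and not depth sets the intervals.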
